A study of Mus musculus with 8 samples.

Results

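The 10 genes described here belong to the circadian clock: Arntl, Clock, Per1, Per2, Per3, Cry1, Nr1d1, Nr1d2, Dbp and Tef. They were chosen by symbol, and each was measured by the brightest of the probe sets whose annotation names that symbol alone, 25 probe sets in all, among 18193 genes on the array. The samples were inguinal white fat, a depot under the skin, taken from 4 LPA4-KO mice (Lpar4 -/Y, lacking the lysophosphatidic acid receptor 4) and 4 wild-type (WT) mice. The 8 animals, all C57BL/6 males and littermates, were 12 weeks old, ate standard chow, lived on a 12-h light and dark cycle and gave 1 array each. The labels name no promoter or cell type that would restrict the deletion. The labels give no hour of tissue collection, and whether the mice were killed at different hours could not be read from them.

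The clock is a feedback loop of transcription. CLOCK and BMAL1, the product of Arntl, bind E-boxes and switch on the Per, Cry and Nr1d genes and the output factors Dbp and Tef. PER and CRY proteins then repress CLOCK and BMAL1, while NR1D1 and NR1D2 (REV-ERB alpha and beta) repress Arntl and Clock. In mouse peripheral tissues, fat included, Arntl therefore stands high at the time of day when Dbp stands low, and the reverse.

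Values are log2 signals as the authors deposited them, and differences are LPA4-KO minus WT. Over all arrays the medians lay between 6.73 and 6.74. Of the genes, 5173 varied between arrays (SD of at least 0.01) and 13020 were near constant; all 10 clock genes varied. Among the Lpar4 probe sets 1452424_at averaged 5.81 ± 0.07 in LPA4-KO and 6.93 ± 0.10 in WT (SD, n = 4 each), whereas 1434186_at and 1439665_at differed by 0.71 and 0.53; where each lies relative to the deletion is not known here, so what they check of the labels is not known either. Adipocyte markers averaged 13.11 to 13.21 in LPA4-KO and 13.09 to 13.15 in WT arrays over 6 genes, of which Adipoq (0.25) and Retn (0.26) rose (limma adjusted p = 0.0486 and 0.0465) and Lep differed by -0.38 (0.244). Endothelial markers averaged 9.20 to 9.45 in LPA4-KO and 9.43 to 9.67 in WT arrays over 6 genes. Of these Esam fell (-0.33, limma adjusted p = 0.0381). When only varying genes were tested 4 of the 6 fell, beside 27.1% of all varying genes that passed there in either direction. Macrophage markers averaged 9.69 to 9.86 in LPA4-KO and 8.82 to 10.08 in WT, and lymphocyte markers 6.57 to 6.74 in LPA4-KO and 6.34 to 6.67 in WT, with 0 passing in either list. Only 2 of the 6 lymphocyte markers varied, Cd3d (0.43, limma adjusted p = 0.240) and Cd3g (0.72, 0.267). Of the adipocyte markers Fabp4 and Lpl were near constant. The part of these cell types in the genotype differences of the clock genes was not tested. The 5 epithelial markers were near constant at 6.48. The 12 skeletal muscle markers averaged 9.09, 9.86, 6.40 and 7.25 in LPA4-KO replicates 1 to 4, against 9.41, 9.13, 6.49 and 7.07 in WT replicates 1 to 4. In whole tissue, fewer cells of a type and less RNA per cell cannot be told apart.

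For 8 of the 10 clock genes replicate 4 stood at the same extreme in both genotypes. Both mice numbered 4, of either genotype, had high Arntl and low Dbp, Tef, Per1, Per2, Per3, Cry1 and Nr1d2 compared with the other mice of their genotype. Arntl had 6.18, 6.89, 6.25 and 7.66 in LPA4-KO replicates 1 to 4, against 6.96, 7.21, 6.97 and 8.13 in WT replicates 1 to 4. Dbp, a D-box activator and one of the strongest rhythmic transcripts known in the mouse, had 10.87, 10.55, 10.77 and 9.14 in LPA4-KO, against 10.54, 10.11, 10.22 and 9.17 in WT. The number 4 mice thus held the highest Arntl and the lowest Dbp of all 8, and the genotypes overlapped for both genes.

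The size of this shift was large for Dbp and Per3 and small for Per1. In the LPA4-KO mouse numbered 4, Dbp was 1.59 below the mean of LPA4-KO replicates 1 to 3, which is 3.01-fold, and Arntl was 1.22 above it, which is 2.32-fold. In the WT mouse numbered 4, Dbp was 1.12 below the mean of WT replicates 1 to 3 (2.17-fold) and Arntl 1.08 above it (2.11-fold). Per3, a period gene, was lower in number 4 by 1.13 within LPA4-KO and by 0.80 within WT. Tef, a D-box activator related to Dbp, was lower by 0.76 and 0.54. Cry1, a repressor of CLOCK and BMAL1, was lower by 0.72 and 0.33, and the period gene Per2 by 0.64 and 0.56. Per1 and Nr1d2 were lower by 0.31 and 0.32 within LPA4-KO, and by 0.32 and 0.45 within WT. The activator Clock was 0.45 higher in number 4 within LPA4-KO, whereas within WT its number 4 value (8.78) lay inside the range of the others (8.50 to 8.80). Nr1d1 did not set number 4 apart in either genotype: 7.76 lay between 7.63 and 7.98 in LPA4-KO, and 8.22 between 8.12 and 8.37 in WT. The labels give these numbers no meaning of their own, and the part of collection time or of any other shared handling in this shift was not tested.

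**Figure D1:**
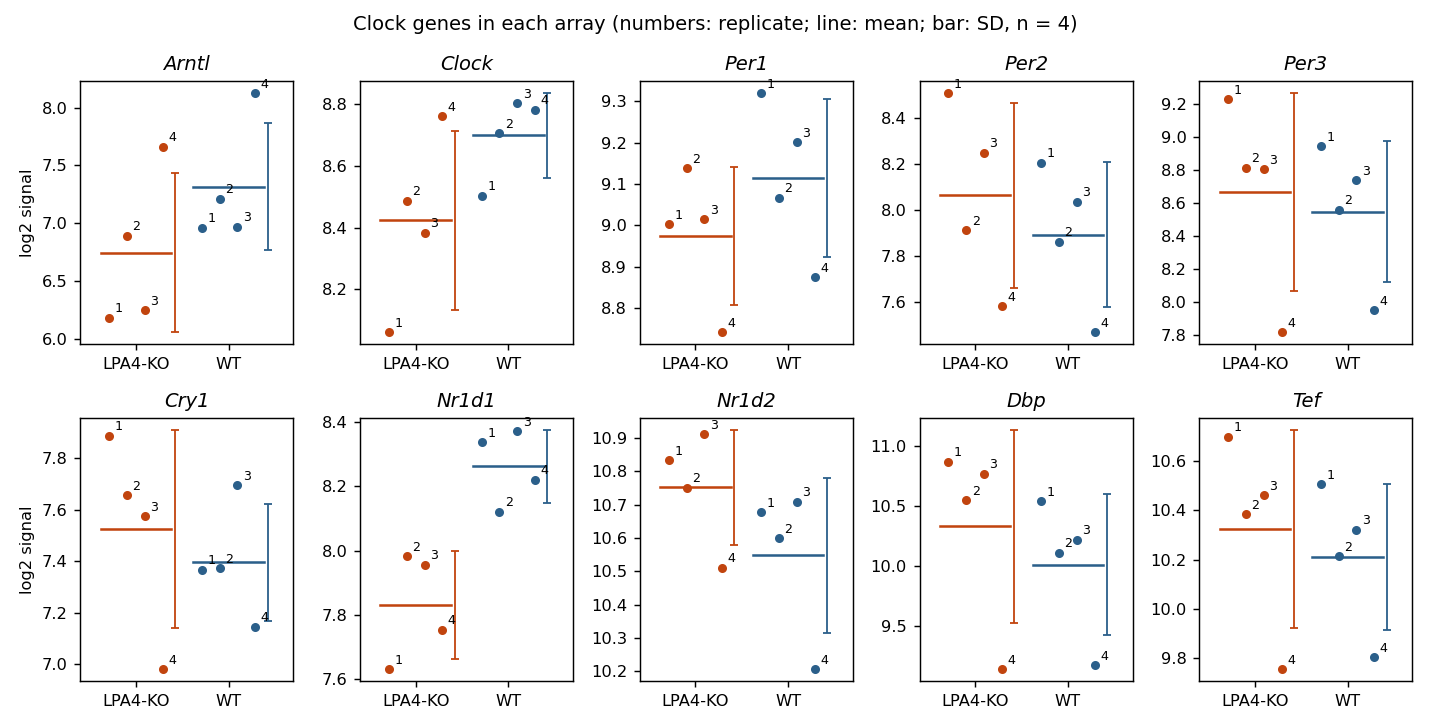
Log2 signal (y axis, scaled for each gene) of the 10 clock genes in the 4 LPA4-KO arrays and the 4 WT arrays; digits are replicate numbers, horizontal lines means and vertical bars the SD (n = 4). Replicate 4 is the lowest point of both genotypes for Per1, Per2, Per3, Cry1, Nr1d2, Dbp and Tef and the highest for Arntl, while the genotypes part without overlap for Nr1d1.

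Fewer of the other genes on the array placed replicate 4 at an extreme. For 7 of the 10 clock genes replicate 4 was the lowest array of both genotypes and for 1, Arntl, the highest. Among the 5173 varying genes replicate 4 was the lowest in both for 431 and the highest in both for 300, 14.1% together. Replicate 1 was likewise an extreme in both genotypes for 6 of the 10 clock genes (highest for 4, lowest for 2), against 17% of varying genes, whereas replicates 2 and 3 were so for 0 and 1. The mean absolute distance of the 10 genes from their genotype mean was 0.54 in LPA4-KO 4 and 0.40 in WT 4, and 0.05 to 0.35 in the other 6 arrays. Over all varying genes that distance was 0.11 in each of these 2 arrays, within the 0.10 to 0.16 of the other arrays. Across the 10 genes the deviations of LPA4-KO 4 and WT 4 from their genotype means correlated at 0.97, a description over genes that are not independent. For the pairs numbered 1, 2 and 3 it was 0.874, -0.043 and 0.841. Arrays of different numbers could be as close, with 0.873 for LPA4-KO 3 and WT 1 and 0.735 for LPA4-KO 1 and WT 3, and LPA4-KO 3 and WT 4 were opposed at -0.952. The muscle markers did not follow the same split, since their mean in LPA4-KO 4 (7.25) and WT 4 (7.07) lay with replicate 3 and well under replicates 1 and 2.

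**Figure D2:**
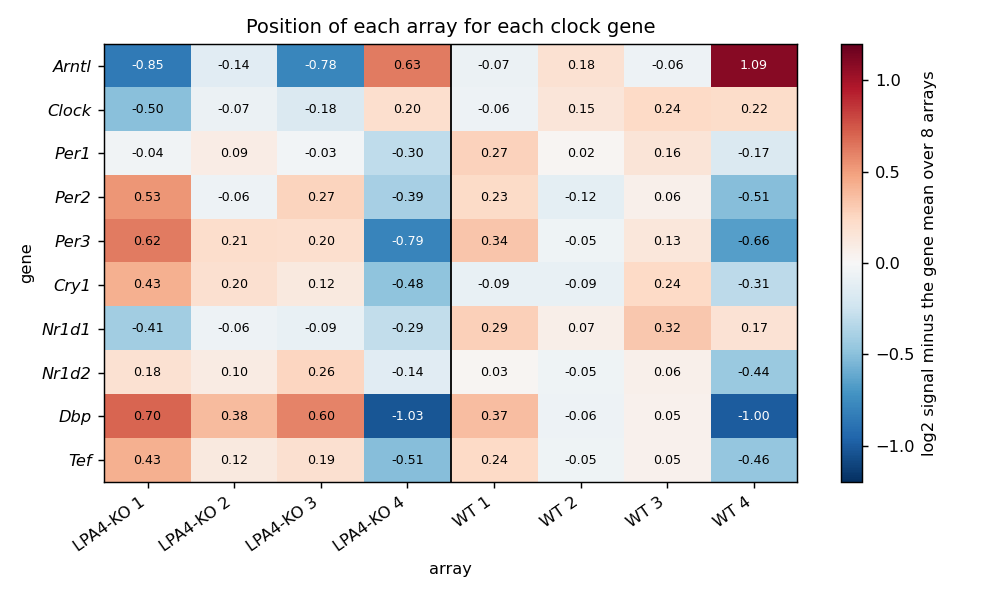
Log2 signal of each clock gene (rows) in each array (columns, LPA4-KO left of WT) minus that gene's mean over the 8 arrays, with red above and blue below the mean. Both replicate 4 columns are red for Arntl and blue for Dbp, Per3 and Tef; LPA4-KO 1 and LPA4-KO 3 show the reverse, with Arntl at -0.85 and -0.78 and Dbp at 0.70 and 0.60.

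The other 6 mice also differed along the same line. LPA4-KO 1 and LPA4-KO 3 had the lowest Arntl and the highest Dbp of all 8 mice, and LPA4-KO 2 lay beside the WT mice. Over replicates 1 to 3 the order also followed genotype. Every LPA4-KO mouse there had lower Arntl and higher Dbp than every WT mouse. The margin was narrow for LPA4-KO 2 (Arntl 6.89 and Dbp 10.55, against 6.96 and 10.54 in WT 1). This subset was looked at after the values were seen, and how many varying genes part by genotype in it was not counted. Over all 8 arrays the genotypes overlapped for both genes (limma adjusted p = 0.491 for Arntl and 0.750 for Dbp). Of the varying genes 33.2% had genotypes that did not overlap over all 8. The planned correlation used all 8 arrays and is given in the closing section. After the values were seen, replicate 4 was set aside because it stood apart in Dbp. Arntl was then correlated with each other clock gene over the 6 arrays of replicates 1 to 3. Dbp ran in exactly the reverse order of Arntl (Spearman's rho = -1, exact permutation p = 0.00278, adjusted p = 0.0250 over the 9 pairs; Pearson's r = -0.903, exact permutation p = 0.0292, adjusted p = 0.0688). This permutation treats the 6 arrays as exchangeable and takes no account of genotype or of the number pairs. Nor does it account for the choice of arrays by values of Dbp itself, so its p is a limited guide. The exact reverse order also rests on near ties. Arntl was 6.964 in WT 1 and 6.970 in WT 3, and Dbp was 10.551 in LPA4-KO 2 and 10.540 in WT 1. No other pair passed by either measure after adjustment. Nr1d2 gave r = -0.935 and rho = -0.886 (exact permutation p = 0.00972 and 0.0333, adjusted p = 0.0688 and 0.0875). Clock gave r = 0.845 and rho = 0.943 (exact permutation p = 0.0306 and 0.0167, adjusted p = 0.0688 and 0.0750), Per2 r = -0.849 and rho = -0.829 (exact permutation p = 0.0292 and 0.0583, adjusted p = 0.0688 and 0.0875) and Tef r = -0.798 and rho = -0.829 (exact permutation p = 0.0431 and 0.0583, adjusted p = 0.0775 and 0.0875). Without the pair of arrays farthest from the median of Arntl, LPA4-KO 1 and LPA4-KO 3, r was -0.804 for Dbp and -0.956 for Nr1d2, but -0.451 for Per2 and 0.473 for Clock. With the genotype means of these 6 arrays removed, r was -0.737 for Dbp and -0.822 for Nr1d2, closer to 0 than with them, and no p was computed for these values. Nr1d1 and Per1 went with Arntl rather than against it over these arrays (r = 0.755 and 0.609, exact permutation p = 0.10 and 0.206, adjusted p = 0.138 and 0.206), without passing. That direction reversed without LPA4-KO 1 and LPA4-KO 3, where r was -0.052 for Nr1d1 and -0.566 for Per1. With genotype means removed the sign stayed but r was smaller, at 0.295 and 0.217.

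**Figure D3:**
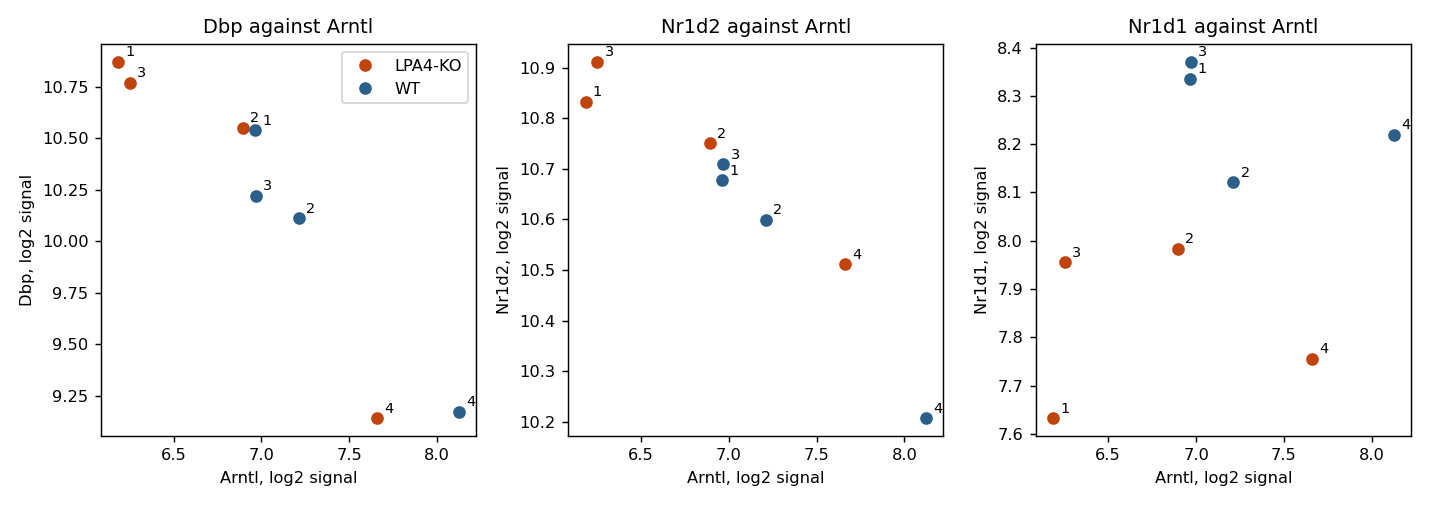
Log2 signal of Dbp, Nr1d2 and Nr1d1 (y axes) against that of Arntl (x axis) in the 4 LPA4-KO and 4 WT arrays, with replicate numbers beside the points. Dbp and Nr1d2 descend as Arntl climbs, from LPA4-KO 1 and 3 at upper left to both replicate 4 arrays at lower right; Nr1d1 shows no such slope, and its LPA4-KO points all lie under its WT points.

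The comparison of genotypes asks whether clock gene expression in this depot differs when Lpar4 is missing. No clock gene passed the limma test over all genes (adjusted p under 0.05), against 4.03% of the 18193 genes; 1 of the 10, Nr1d1, had an unadjusted p under 0.05, against 22.9% of all genes. Nr1d1 encodes the nuclear receptor REV-ERB alpha, which represses Arntl. It had 7.63, 7.98, 7.96 and 7.76 in LPA4-KO replicates 1 to 4, against 8.34, 8.12, 8.37 and 8.22 in WT replicates 1 to 4. Every LPA4-KO value was thus under every WT value, a difference of -0.43 ± 0.10 (SE, n = 4 against 4; 95% confidence interval -0.67 to -0.19; limma adjusted p = 0.0665). Of the varying genes 33.2% likewise had genotypes that did not overlap, so 1 in 10 does not set the clock genes apart.

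Nr1d1 passed when only varying genes were tested (limma adjusted p = 0.0177; 27.1% of varying genes passed), and there it passed without any 1 array as well (adjusted p from 0.0242 to 0.0406). The same-numbered mice of the genotypes deviated together across genes, so the replicate number was also fitted as a block. However, LPA4-KO 3 was closer to WT 4 (r = 0.364) than to WT 3 (0.189). Likewise LPA4-KO 4 was closer to WT 3 (0.266) than to WT 4 (0.244), so the block is a limited guide. With this block 0 of the 18193 genes passed (0%). Among varying genes, where 19.5% passed with the block, Nr1d1 (adjusted p = 0.0443) and Arntl (adjusted p = 0.0299) did. Neither passed there when both mice of any 1 number were left out (adjusted p from 0.0944 to 0.122 for Nr1d1 and from 0.0640 to 0.107 for Arntl), which leaves 3 pairs.

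Arntl averaged 6.75 ± 0.69 in LPA4-KO and 7.32 ± 0.55 in WT (SD, n = 4 each), a difference of -0.57 with an interval of -1.61 to 0.47 (limma adjusted p = 0.491). It was lower in the LPA4-KO mouse in each of the 4 number pairs, with differences of -0.78, -0.32, -0.72 and -0.47 for numbers 1 to 4. Without LPA4-KO 4 the difference was -0.87, and without WT 4 it was -0.30. Clock, the partner of BMAL1, had 8.06, 8.49, 8.38 and 8.76 in LPA4-KO, against 8.50, 8.71, 8.80 and 8.78 in WT, and was likewise lower in LPA4-KO in all 4 pairs, though with a difference of only -0.02 in number 4. Its difference was -0.28 (-0.65 to 0.10; adjusted p = 0.356), or -0.16 without LPA4-KO 1.

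Nr1d2, which encodes REV-ERB beta, had 10.83, 10.75, 10.91 and 10.51 in LPA4-KO, against 10.68, 10.60, 10.71 and 10.21 in WT. It was higher in LPA4-KO in all 4 pairs, by 0.15 to 0.30, with a difference of 0.20 (-0.14 to 0.54; adjusted p = 0.453). Its adjusted p with the replicate block among varying genes was 0.0504, just over the threshold. Its genotypes overlapped, since LPA4-KO 4 lay below WT 1, WT 2 and WT 3. Dbp differed by 0.32 (-0.85 to 1.50; adjusted p = 0.750), or 0.33, 0.44, 0.55 and -0.03 in numbers 1 to 4. Without LPA4-KO 4 the difference of Dbp was 0.72, and without WT 4 it was 0.04.

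The period genes, Cry1 and Tef differed little beside their spread. Per1, also an acutely inducible gene, ranged from 8.74 to 9.14 in LPA4-KO and from 8.88 to 9.32 in WT, with a difference of -0.14 (-0.44 to 0.16; adjusted p = 0.557). Per2 ranged from 7.58 to 8.51 in LPA4-KO and from 7.47 to 8.20 in WT and was higher in LPA4-KO in all 4 pairs (0.17; -0.43 to 0.77; adjusted p = 0.742). Per3 (0.12; -0.75 to 0.99), Cry1 (0.13; -0.40 to 0.66) and Tef (0.11; -0.47 to 0.70) had adjusted p of 0.885, 0.779 and 0.832. All 5 intervals span 0 and are wider than the differences themselves. The difference of Per3 turned to -0.07 without LPA4-KO 1 and -0.08 without WT 4, and that of Tef to -0.01 and -0.02. In all, 5 of the 10 clock genes had the same sign in all 4 number pairs (Arntl, Clock and Nr1d1 lower, Per2 and Nr1d2 higher in LPA4-KO), close to the 52.8% of varying genes that did.

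**Figure D4:**
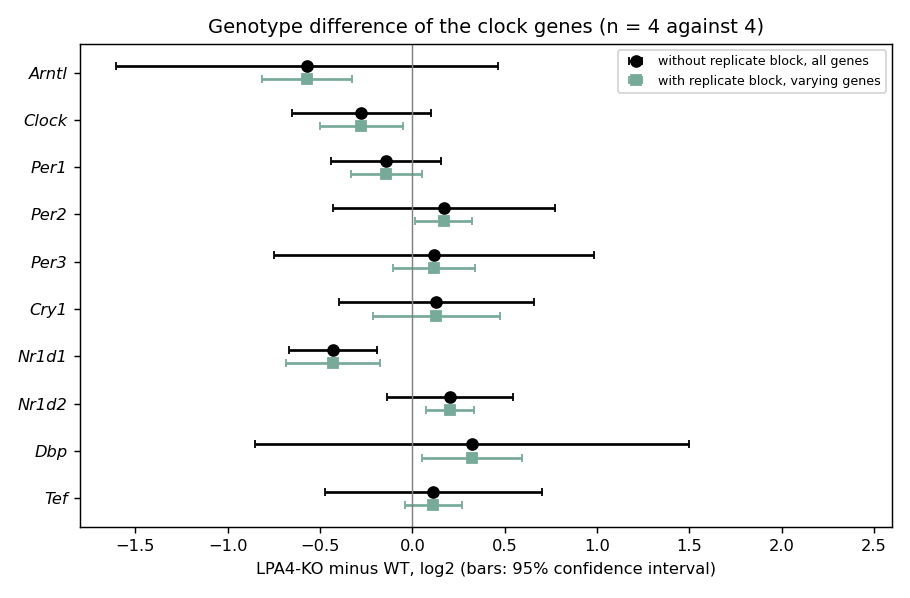
LPA4-KO minus WT difference in log2 signal of the 10 clock genes (x axis) with its 95% confidence interval, from limma without the replicate block over all genes (black circles) and with it over varying genes (green squares). Without the block the interval of Nr1d1 alone leaves out 0; with the block those of Arntl, Clock, Per2, Nr1d1, Nr1d2 and Dbp do, of which Arntl and Nr1d1 passed after adjustment over all varying genes.

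Several probe sets of a gene were compared where they varied. Of the 25 probe sets 19 varied, and 0 passed over all probe sets, where 1.91% did. Among varying probe sets with the replicate block 6 passed, against 16.2% of all of them. Dbp had a second probe set, 1418174_at, with a difference of 0.32 equal to that of its brightest, 1438211_s_at, whose suffix marks probes shared with other transcripts. The other Per2 probe set that varied, 1457350_at, differed by 0.20 and the other for Tef, 1438033_at, by 0.04, on the same side as the brightest. All 3 varying Clock probe sets were lower in LPA4-KO (-0.28, -0.38 and -0.31). Of these 1418660_at and 1435775_at passed among varying probe sets with the replicate block (adjusted p = 0.0323 and 0.0327) and 1418659_at did not (0.0830). The other 4 that passed in that fit were those of Arntl (1425099_a_at, 0.0327) and Nr1d1 (1426464_at, 0.0478) and a pair for Per3.

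Per3 was the exception. Its brightest probe set, 1421087_at, was 0.12 higher in LPA4-KO, whereas 1458176_at, 1441445_at and 1442243_at differed by -0.36, -0.31 and -0.26, lower in LPA4-KO, and 1460662_at by -0.0065. Of these, 1441445_at and 1442243_at passed among varying probe sets with the replicate block (adjusted p = 0.0434 and 0.0366), and 1458176_at (0.0555) and 1460662_at (0.938) did not. The mean over all Per3 probe sets was -0.14, lower in LPA4-KO (adjusted p = 0.718). Which part of the Per3 transcript each probe set reads is not known here, so no genotype direction is given for Per3. The direction of its shift between mice did not depend on the probe set, since replicate 4 was the lowest of both genotypes in all 5 varying Per3 probe sets. The size did depend on it. From lowest to highest array, 1421087_at went from 7.82 to 9.23 in LPA4-KO and from 7.95 to 8.94 in WT. For 1460662_at these were 6.68 to 7.04 and 6.79 to 7.01.

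**Figure D5:**
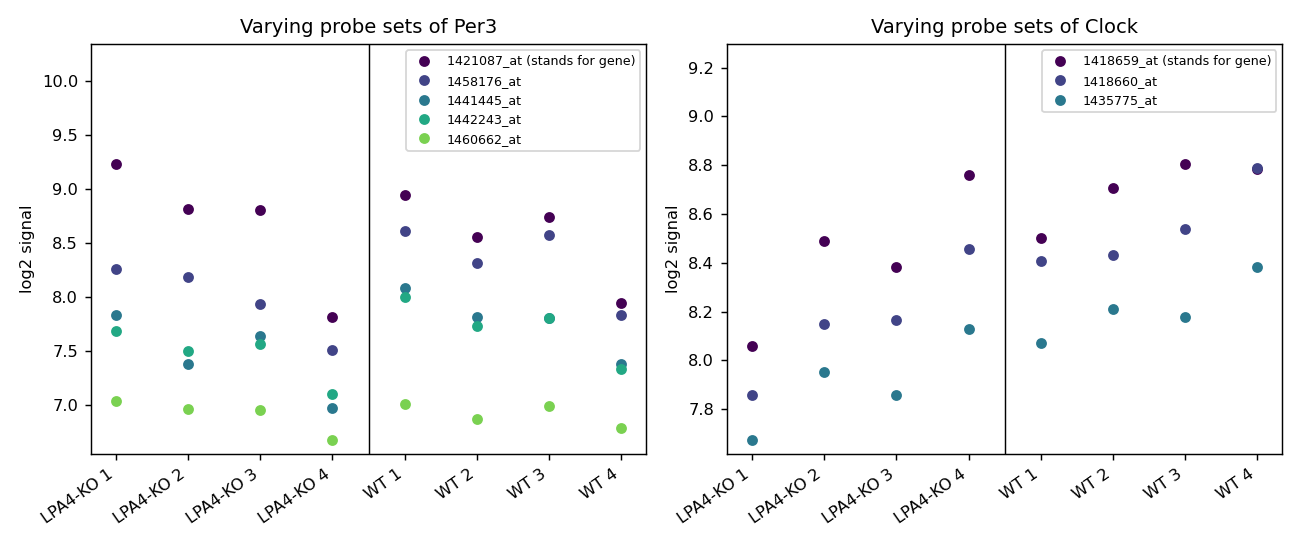
Log2 signal (y axis) of the 5 varying Per3 probe sets and the 3 varying Clock probe sets in each array (x axis, LPA4-KO left of WT). For Per3, 1421087_at lies about level between genotypes while 1458176_at, 1441445_at and 1442243_at lie lower in LPA4-KO; all 5 are lowest at replicate 4.

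Promoter sequences of the clock genes came from RefSeq (GRCm38.p6), each running from 250 bases before to 50 after an annotated gene start; 9 of the 10 genes matched, with 14 starts. Sought on both strands were 3 motifs of the loop: the E-box CACGTG, bound by CLOCK and BMAL1; the D-box forms TTATGTAA, TTACGTAA, TTACATAA and TTATATAA, bound by DBP and TEF; and AGGTCA, the core of the site bound by NR1D1 and NR1D2. No motif contains another. The E-box was found in Cry1, Per1 and Tef, 4 of 14 promoters, and in 7.15% of all 32851 promoters of the table. The D-box was found in Per3 alone, against 1.59% of all promoters, and AGGTCA in Arntl, Clock, Nr1d2 and Per1, against 16.3%. Shown are the promoter of Dbp, which had the largest replicate 4 shift in both genotypes and held none of these motifs, and 4 promoters chosen because they hold a match. Matches are in capitals.
Dbp, chr7:45704997-45705296, plus strand: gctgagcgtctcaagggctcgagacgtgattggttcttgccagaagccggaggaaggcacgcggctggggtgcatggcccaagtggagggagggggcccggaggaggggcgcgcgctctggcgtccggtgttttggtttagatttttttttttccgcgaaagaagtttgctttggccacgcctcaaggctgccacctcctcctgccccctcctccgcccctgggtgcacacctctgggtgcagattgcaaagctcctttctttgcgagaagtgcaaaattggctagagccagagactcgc
Per3, chr4:151044616-151044915, minus strand: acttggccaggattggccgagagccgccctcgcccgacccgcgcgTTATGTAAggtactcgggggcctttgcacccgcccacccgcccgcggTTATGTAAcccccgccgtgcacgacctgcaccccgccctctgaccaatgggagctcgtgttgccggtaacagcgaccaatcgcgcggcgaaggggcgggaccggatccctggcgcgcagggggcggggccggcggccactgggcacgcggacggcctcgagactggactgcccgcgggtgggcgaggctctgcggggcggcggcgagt
Tef, chr15:81802423-81802722, plus strand: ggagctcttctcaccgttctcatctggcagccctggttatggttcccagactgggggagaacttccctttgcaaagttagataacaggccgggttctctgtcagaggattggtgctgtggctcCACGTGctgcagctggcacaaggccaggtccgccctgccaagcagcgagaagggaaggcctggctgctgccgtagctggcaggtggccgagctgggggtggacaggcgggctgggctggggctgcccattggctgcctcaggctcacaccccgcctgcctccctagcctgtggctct
Cry1, chr10:85185005-85185304, minus strand: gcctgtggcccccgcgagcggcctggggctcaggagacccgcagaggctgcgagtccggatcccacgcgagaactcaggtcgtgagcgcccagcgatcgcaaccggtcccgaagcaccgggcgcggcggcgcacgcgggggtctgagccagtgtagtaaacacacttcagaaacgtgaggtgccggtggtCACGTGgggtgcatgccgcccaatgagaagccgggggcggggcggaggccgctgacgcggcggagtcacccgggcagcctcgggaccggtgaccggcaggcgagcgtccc
Arntl, chr7:113207261-113207560, plus strand: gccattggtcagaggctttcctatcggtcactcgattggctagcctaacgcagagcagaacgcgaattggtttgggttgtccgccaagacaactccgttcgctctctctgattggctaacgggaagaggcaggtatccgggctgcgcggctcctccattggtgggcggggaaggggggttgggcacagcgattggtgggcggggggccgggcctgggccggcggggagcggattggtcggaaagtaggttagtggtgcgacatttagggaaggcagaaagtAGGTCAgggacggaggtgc
The D-boxes of Per3 begin 205 and 158 bases before the gene start, the E-box of Tef 127 bases and that of Cry1 60 bases before it; AGGTCA lies downstream of this Arntl start. A match, or none, describes the letters in the window only. Per1 carries an E-box too, 166 bases before a start, and shifted less between mice than Tef did.

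Other genes of the clock were counted from lists. Of 10 further clock transcription factors and repressors, 6 of which varied, 0 passed in either direction over all genes, and the median difference was -0.03, against 0.00 over all genes. By smallest p they were led by Cry2, a repressor, at -0.35 (adjusted p = 0.172), Bhlhe41, which was near constant (0.208), Rora, which activates Arntl, at -0.29 (0.251) and the D-box activator Hlf at 0.24 (0.625). Hlf passed among varying genes with the replicate block (adjusted p = 0.0457) and Cry2 did not (0.0699). Of 13 kinases, ubiquitin ligases and cofactors of clock proteins, 4 of which varied, 0 passed. Fbxl21, Btrc and Nono, with the smallest p, were near constant, and Crebbp differed by -0.07 (adjusted p = 0.300).

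Of 8 genes that follow the clock in mouse tissues, all of which varied, 0 passed over all genes, with a median difference of -0.08. Cdkn1a, a cell cycle inhibitor, had 8.29, 8.46, 8.18 and 9.31 in LPA4-KO, against 9.23, 9.44, 9.66 and 9.61 in WT (-0.92 ± 0.27, SE; adjusted p = 0.111). The highest LPA4-KO value of Cdkn1a was replicate 4, the only one to reach the WT range. The glycogen synthase Gys2 differed by 0.19 and Lonrf3 by -0.31, both without overlap between genotypes (adjusted p = 0.0904 and 0.0998). Pdk4, the pyruvate dehydrogenase kinase induced in fasting, differed by -0.75 (0.168). Among varying genes 3 of the 8 passed, Cdkn1a, Gys2 and Lonrf3 (adjusted p = 0.0282, 0.0423 and 0.0315), against 27.1% of all varying genes. With the replicate block 1 of the 8 did, Cdkn1a (0.0384; Gys2 0.0598 and Lonrf3 0.0552), against 19.5%. The 2 of 8 without overlap compare with 33.2%. These counts are near the shares over all varying genes.

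Genes whose pattern over the 8 arrays was most like that of Dbp were sought among the 1857 other genes with an SD of at least 0.2. Hlf came first (r = 0.984), followed by the DNA polymerase Rev1 (0.930), the cilium gene Cys1 (0.880) and the protease Pcsk4 (0.871). Hlf had 8.08, 7.77, 7.89 and 7.16 in LPA4-KO, against 7.77, 7.57, 7.57 and 7.04 in WT, so it too was lowest in replicate 4 of each genotype. The most opposite were Msc, a repressor of the basic helix-loop-helix class (-0.884), Dtx4 (-0.878), the kinase Aatk (-0.874) and Klhl13 (-0.873). Msc and Dtx4 followed Arntl (r = 0.966 and 0.969), and Msc was highest in replicate 4, at 8.11 in LPA4-KO and 8.54 in WT. These genes were picked as the extremes of 1857 correlations over the same 8 arrays, so their r is a description.

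Acute and glucocorticoid response genes were compared with the replicate 4 shift. None of 7 acute response genes, such as Fos and Egr1, and none of 5 glucocorticoid response genes, such as Fkbp5, was lowest in both or highest in both replicate 4 arrays, a pattern that 14.1% of varying genes showed, so that 0 of so few genes says little. Of the 6 varying further clock factors 4 were lowest in both (Cry2, Hlf, Bhlhe40 and Ciart, named after their values were seen). Of the kinases, ubiquitin ligases and cofactors, 4 of which varied, 2 were lowest in both. Among the 8 genes that follow the clock only 1 was lowest and 1 highest in both. The lists were not tested against each other. No acute or glucocorticoid response gene passed over all genes. Fos was highest in LPA4-KO 2 (10.55) among LPA4-KO mice and in WT 1 (11.10) among WT mice. In Arntl, WT 1 (6.964) was nearly level with WT 3 (6.970), which had the lowest Fos of the WT mice (9.15). LPA4-KO 2 lay within the LPA4-KO range of Arntl. These mice were picked after their values were seen, and the part of acute signals in the values of Arntl was not tested. Per1, which responds to both kinds of signal, was highest in the same mice as Fos, at 9.14 in LPA4-KO 2 and 9.32 in WT 1. The other WT mice did not keep the order of Fos. WT 4 had Fos at 9.96 and the lowest Per1 of the WT mice (8.88), and WT 3 had Per1 at 9.20. Among LPA4-KO mice Fkbp5 was highest in LPA4-KO 4 (10.98), where Per1 was lowest (8.74). The part of such signals in the values of Per1 was not tested.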

How the data were processed

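Per the labels' protocols, total RNA of snap-frozen tissue was extracted, and 100 ng per mouse was amplified and biotin-labelled for a 3' expression array. The authors deposited log2 signals of 45101 probe sets in 8 arrays; the submitters' processing notes name R 2.14.0. The methods of background correction, normalization and summarization were not given in the sources used here. That the scale is log2 was read from the values (4.93 to 14.3), and how 78.7% of probe sets came to be near constant is not known. The number of arrays limits the precision.

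Genes were named through GEO's platform annotation: 34945 probe sets have 1 symbol, 932 several and 9160 none, and 64 are controls; 34741 have an ID in the GRCm38.p6 gene table, with 0 symbols updated. The genotypes were tested with limma 3.58.1 (two-sided; lmFit and eBayes) in R 4.3.3, on 1 brightest probe set per gene, with Benjamini-Hochberg adjustment over all genes. The test was tested on simulated data. Over all genes it recovered 28% of added log2 differences of 0.3, 60% of those of 0.6 and 84% of those of 1, with 6 false calls. A clock gene that did not pass may therefore still differ.

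Deviations from genotype means of same-numbered arrays correlated at 0.315, 0.486, 0.189 and 0.244 over all genes, all above 0.1, so same-numbered mice were taken as pairs. Arrays of different numbers exceeded 0.1 as well. These were LPA4-KO 3 with WT 4 (0.364), LPA4-KO 4 with WT 3 (0.266), LPA4-KO 2 with WT 1 (0.220) and LPA4-KO 1 with WT 2 (0.107). The remaining pairs of different numbers were negative. The values therefore do not single out the number pairs, and no label says what a number shares. Gene lists and members were chosen with earlier results of these data known. The text names all members; passing genes, or up to 4 of smallest p, of 3 further clock lists; and the 4 genes most like and 4 most unlike Dbp. Fos, Egr1 and Fkbp5 are named outside this rule, as examples chosen after their values were seen. Listed genes not measured by this route are left out. Alternatives covered probe set choice, dim and near-constant genes, normalization, variance model, the Welch test, the replicate block, muscle content and left-out arrays.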

Additional observations from a re-analysis of the deposited data

Results flagged for a closer look

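Of 56 groups of 4 arrays checked, for 28 varying clock and clock-linked genes, 3 held an array far from the other 3, and chance gives about 1 in 20. None was among the 20 groups of the 10 clock genes themselves, since replicates 1 to 3 also spread. Rora was high in LPA4-KO 4 (9.57, against 9.45 to 9.47 in the other LPA4-KO arrays). Tspan4, listed as a gene that follows the clock, was low in LPA4-KO 4 (9.50, against 9.996 to 10.10). Csnk1d, a kinase of the period proteins, was high in WT 3 (10.29, against 10.12 to 10.14).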

How the results depend on the processing

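Among the alternatives, a filter on genes, the variance model, the Welch test and the replicate block cannot change a difference. Many settings with arrays left out also share the same differences, so the values below are not independent checks of direction. Of 340 clock gene values under alternatives 329 kept their direction and 13 passed. Those reversed were Per3 with probe sets averaged (-0.14), without LPA4-KO 1 (-0.0692) and without WT 4 (-0.0807; 1 array left out, -0.0807 to 0.402), Tef without the same arrays (-0.0108 and -0.0221; range -0.0221 to 0.303), and Cry1 without both arrays numbered 1 (-0.000154). The count of clock genes passing, 0 as reported, was 1 among varying genes or with median centring over varying genes (Nr1d1, adjusted p = 0.0427), and 2 with the replicate block among varying genes, and it stayed 0 without any 1 array over all genes. Leaving out arrays among varying genes, which was added after seeing the data, gave 0 to 1. With the muscle mean as a covariate Nr1d1 was at -0.43 (adjusted p = 0.101). Over all genes 733 passed, 1402 among varying genes, 9 by the Welch test, 0 with the replicate block, 342 with the muscle covariate, and 10 to 253 without 1 array, fewest without LPA4-KO 3. Of the further clock genes 0 passed as reported, 1 with probe sets averaged, 3 among varying genes, 2 there with the replicate block, and 0 to 1 without 1 array. Of the clock probe sets 6 passed among varying ones with the replicate block. Over all 8 arrays, the correlation as planned, Arntl gave r = -0.938 with Dbp and -0.961 with Nr1d2 (exact permutation adjusted p = 0.00100 for both), and 7 of 9 pairs passed; r with Per1 turned to 0.609 without replicate 4, and r with Nr1d1 (0.339) to -0.150 with genotype means removed and -0.221 without WT 4 and LPA4-KO 1. Beyond these, the cause of each change was not tested.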
